A study of Mus musculus with 50 samples.

Results

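Mammary gland tumors of mice that received chronic injections of glargine were compared with those of mice that received vehicle. Of the 50 tumors sequenced, 10 came from glargine-treated mice and 10 from vehicle-treated mice, and these 20 were taken by their titles; the other tumors came from mice given insulin, X10, an insulin analogue known for strong binding to the IGF1 receptor, or IGF1, 10 of each. All mice, vehicle included, were female p53R270H/+WAPCre animals, 8 weeks old at the start, which carry 1 mutant p53 allele that is switched on by a Cre recombinase under the promoter of the milk protein gene Wap, that is, in mammary epithelium. Injections were given under the skin every other day until a tumor had formed. Tumors were taken at 1 cm3, 24 h after the last injection, so that any response to a single dose is seen only as far as it lasts a day. The study chose tumors with an epithelial to mesenchymal transition (EMT) type of histology and a latency near the median of their group, which limits how far these tumors stand for all tumors of a treatment. The titles call the control tumors untreated; the series' own description lists vehicle and no untreated group, and they are called vehicle here. Each tumor is named by its title, as in glargine_47 or Untreated_161, where the number is taken as that of the mouse. The sample numbers of the sequencing run through the groups one after the other, so that treatment and the order of submission cannot be told apart.

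Glargine is a long-acting insulin analogue, in which changes at the ends of both chains make the hormone precipitate under the skin and dissolve slowly. Insulin and its analogues bind the insulin receptor, encoded by Insr, and, with lower affinity, the receptor of IGF1, encoded by Igf1r. Both are tyrosine kinases that signal through IRS adaptors to PI3K, AKT and mTOR, and through RAS to ERK. In the mammary gland insulin acts with prolactin and glucocorticoids in the formation of milk-secreting alveoli, and insulin and IGF1 are known as growth factors of mammary tumor cells.

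RNA was measured as RPKM, a read count divided by gene length in kilobases and by library size. Library size, recovered from the steps of the RPKM values, was between 26.6 and 46.6 M reads with glargine and between 37.4 and 51.3 M reads with vehicle. Differences are given as log2 fold changes, glargine minus vehicle, on the log2(RPKM + 0.5) scale, which understates the change of low genes. The label of the tissue was checked against marker genes. The epithelial keratin gene Krt8 was above 3 RPKM in all 20 tumors, with a median of 188 RPKM with glargine and 216 RPKM with vehicle. Vim, the mesenchymal intermediate filament vimentin, was far higher, with medians of 4676 and 3545 RPKM. The luminal genes Pgr and Foxa1 were below the filter on low values. Several tumors stood apart. glargine_64 had the highest skeletal muscle markers (summed 6339 RPKM) and glargine_78 the highest milk protein genes (982 RPKM) and the smallest library. Untreated_174, Untreated_182 and Untreated_195, called the 3 Cdh1-high vehicle tumors here, had more than 50 RPKM of Cdh1, the gene of the epithelial adhesion molecule E-cadherin, while no glargine tumor had more than 35.0 RPKM of it. Where leaving out glargine_64 and glargine_78, or these 3 tumors, turned a list median of over 0.1 in size or left no member of a list under 0.05 in the direction given, this is said beside the list.

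No gene passed the test. Of 16733 genes with a mean of at least 0.5 RPKM, 0 (0.0%) had a Benjamini-Hochberg adjusted p-value under 0.05 in limma, and the smallest adjusted p was 0.307. Limma voom on the recovered reads called 0 of 15590 genes. At an unadjusted p under 0.05 there were 1043 genes (6.23%), of which 554 (3.31%) were higher and 489 (2.92%) lower with glargine, and the median log2 fold change of all tested genes was 0.02. All p-values for single genes are unadjusted unless called adjusted, and every gene named had an adjusted p of at least 0.307. Counts of list members at an unadjusted p under 0.05 are to be read against the 3.31% and 2.92% of all genes, and they are no calls. Members of a list can rise and fall together in the same tumors, so they are not independent observations. On simulated data of the same size, 100 genes were given a log2 fold change of 1 and 100 a change of 2. The procedure found 73% and 95% of them, and 9 unchanged genes were called in the same fit. Whether these shares hold for the tumors, whose spread differed between the groups, was not tested. The count of 0 genes therefore does not show that changes of this size are absent.

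The gene with the smallest p was Nacc2, which encodes a BTB domain repressor of transcription (chr2:26055535-26123220, minus strand, GRCm38). Its RPKM was 43.0 in the lowest, 74.3 in the median and 144.99 in the highest glargine tumor, against 27.9, 40.1 and 60.2 with vehicle. The log2 fold change was 0.82 ± 0.17 (SE), with p = 1.836e-05 and adjusted p = 0.307. In 7 of 10 glargine tumors Nacc2 was above the highest vehicle tumor; glargine_47, glargine_70 and glargine_73 lay within the vehicle range. Group means of Nacc2 were 80.0 RPKM for glargine, 43.3 for vehicle, 74.2 for insulin, 58.3 for X10 and 57.5 for IGF1.

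**Figure D1:**
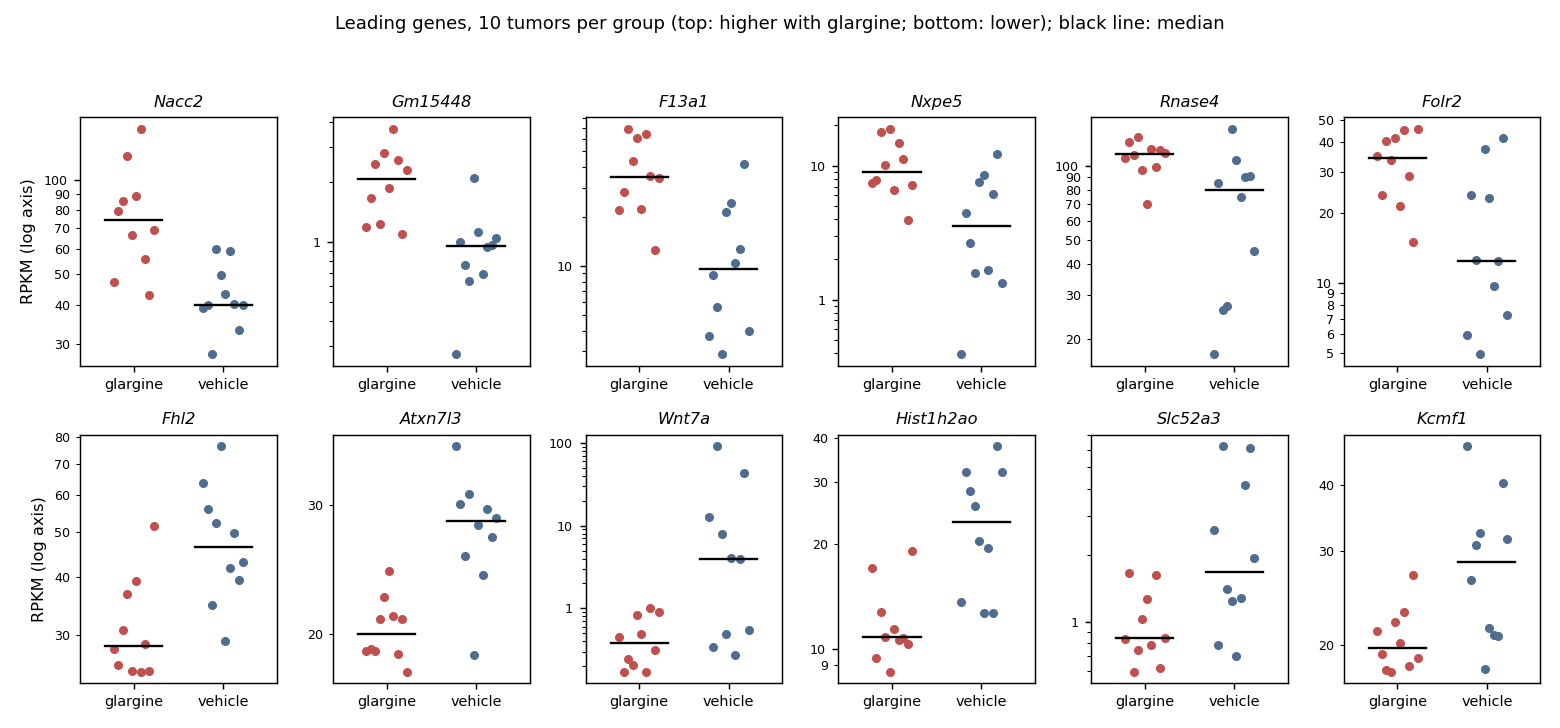
RPKM (log axes) of the 6 protein coding genes with the smallest p in each direction, in each of the 10 glargine and 10 vehicle tumors, with the group median as a black line. The groups overlap in every panel; all 10 glargine tumors lie above the vehicle median for Nacc2 and below it for Wnt7a.

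Among the 12 leading protein coding genes with higher values with glargine, 3 are known from tissue macrophages. F13a1, the coagulation factor XIII A chain (chr13:36867178-37050244, minus strand), had 12.4, 34.9 and 68.9 RPKM in the lowest, median and highest glargine tumor and 2.87, 9.57 and 42.0 RPKM with vehicle, a log2 fold change of 1.79 ± 0.42 (p = 9.571e-05, adjusted p = 0.534). All glargine tumors were above the vehicle median, and the highest vehicle tumor, Untreated_195, lay within the glargine range. Folr2, the folate receptor beta, had a median of 34.3 RPKM with glargine and 12.4 with vehicle (log2 1.13, p = 0.000697), and Fcna, the secreted lectin ficolin A, had 18.5 and 6.76 RPKM (log2 1.13, p = 0.00191). The other treatments are set against the same vehicle tumors. The mean of F13a1 was 39.2 RPKM with glargine, 39.8 with insulin, 29.3 with X10 and 52.0 with IGF1, against 13.5 with vehicle.

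The other leading genes with higher values are given singly, and some may vary with the macrophage genes. Nxpe5 and F13a1 were both highest in Untreated_195 among vehicle tumors, and both lowest in glargine_73 among glargine tumors. Fcgrt, the neonatal Fc receptor that recycles IgG and albumin, had medians of 71.1 and 42.5 RPKM (log2 0.69, p = 0.00172). Rnase4, a secreted ribonuclease whose gene overlaps that of angiogenin so that reads may be shared, had 112 and 79.9 RPKM (log2 0.88, p = 0.00056). The chloride transporter Clcn4-2 differed little in size but also little within groups, with 11.9 and 9.36 RPKM (log2 0.35, p = 0.00174). Gm15448 (log2 0.83, p = 8.967e-05) and Nxpe5 (log2 1.39, p = 0.000344) complete the genes with no known muscle or milk role. Myh6, a cardiac myosin heavy chain, had a log2 fold change of 2.01 (p = 0.00128), but its mean of 30.7 RPKM with glargine came from 282 RPKM in glargine_64, and the median was 1.25 RPKM. The remaining genes, Lalba and Csn1s2a, encode milk proteins.

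Of the 12 leading genes with lower values, Fhl2 came first. It encodes a LIM domain adaptor of transcription factors (chr1:43123074-43196984, minus strand) and had 25.0, 28.4 and 51.3 RPKM in the lowest, median and highest glargine tumor, against 29.1, 46.3 and 76.5 RPKM with vehicle. The log2 fold change was -0.60 ± 0.15 (p = 0.00014, adjusted p = 0.587). In 6 glargine tumors Fhl2 was below the lowest vehicle tumor, and the other 4 lay within the vehicle range, glargine_78 highest. Atxn7l3, a subunit of the deubiquitinase module of the SAGA complex, had medians of 20.0 and 28.5 RPKM (log2 -0.43, p = 0.00029), and 8 vehicle tumors were above the highest glargine tumor.

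Wnt7a, a secreted Wnt ligand (chr6:91363981-91411363, minus strand), differed by range rather than by a shift of all tumors. It was between 0.172 and 1.0 RPKM in the 10 glargine tumors, with a median of 0.379, and between 0.276 and 92.0 RPKM with vehicle, with a median of 3.98 (log2 -2.35 ± 0.62, p = 0.000395, adjusted p = 0.612). In 6 vehicle tumors it was above every glargine tumor, with 92.0 RPKM in Untreated_174 and 43.5 in Untreated_195; Untreated_161 had 12.6 RPKM and Untreated_182 7.83 RPKM, and in 4 vehicle tumors it was under 1 RPKM. By Cdh1, Untreated_174, Untreated_182 and Untreated_195 were the highest and Untreated_161 was at 7.20 RPKM, so that the order of the tumors differed between both genes. The mean was 0.648 RPKM with insulin, 3.25 with X10 and 0.814 with IGF1, so that vehicle, at 16.6 RPKM, was the group with the highest mean.

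Hist1h2ao and Hist1h2ap, histone H2A genes that are nearly identical copies and may share reads, had medians of 10.8 and 8.23 RPKM with glargine and 23.0 and 17.0 RPKM with vehicle (log2 -0.87 and -0.82, p = 0.000518 and 0.00145). In 7 of 10 glargine tumors Hist1h2ao was below the lowest vehicle tumor. Replication-dependent histone RNA has no poly-A tail, so that poly-A selection would remove most of it, but how much it removed was not measured. Isg20, an exonuclease induced by interferon, had 11.2 and 20.1 RPKM (log2 -0.81, p = 0.000907). The riboflavin transporter Slc52a3 (log2 -0.83), the ubiquitin ligase Kcmf1 (-0.44), the splicing and repair factor Xab2 (-0.36), 3110082I17Rik (-0.47) and Fam104a (-0.39) had p-values from 0.000585 to 0.00164.

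**Figure D2:**
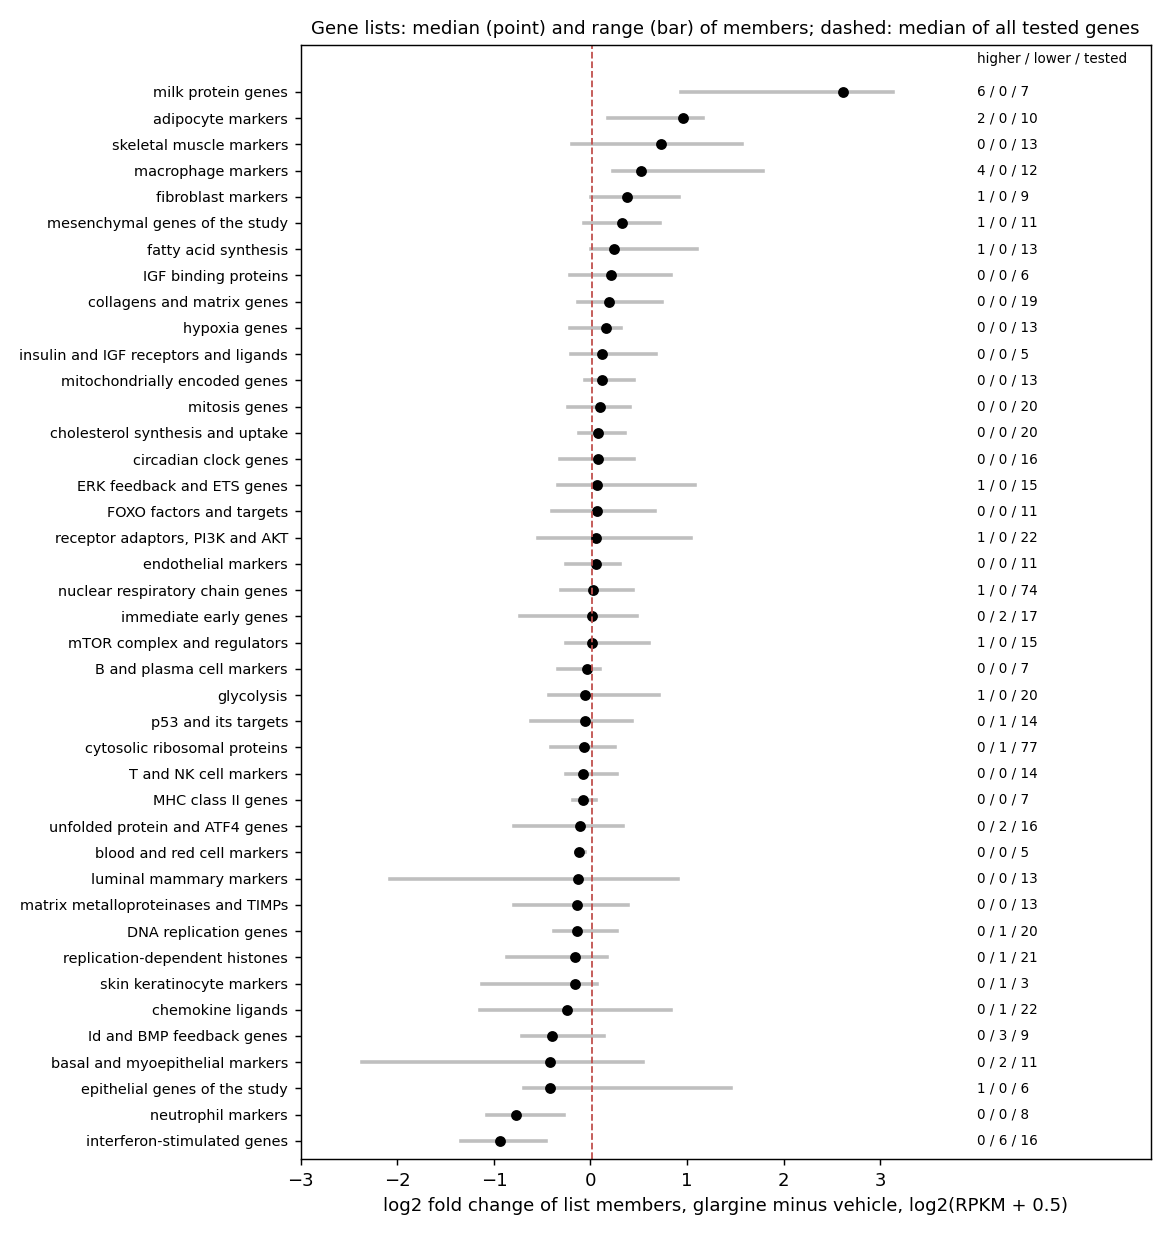
Log2 fold changes (glargine minus vehicle) over the tested members of 41 gene lists; a point is the median, a bar the range, and the dashed line the median of all tested genes, 0.02. The numbers at the right count members with an unadjusted p under 0.05 that were higher or lower, and members tested; milk protein genes (median 2.62) and interferon-stimulated genes (-0.94) lie at the ends.

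Of the 41 lists, 23 had a member under 0.05. Each was refitted 36 times (16 alternative settings and 20 fits with 1 tumor left out), and in 15 of the 23 no member was under 0.05 in the same direction in at least 1 of these fits. The number of such fits was 25 for skin keratinocyte markers, 22 for fatty acid synthesis, 21 for the epithelial genes of the study, 19 for ERK feedback and ETS genes, 12 for DNA replication, 11 for glycolysis and 10 for receptor adaptors. It was 6 for immediate early genes, 4 each for fibroblast, adipocyte and ribosomal protein genes, 3 each for mTOR and basal genes, 2 for chemokine ligands and 1 for the mesenchymal genes. A member that stayed under 0.05 is not a result about its list where the share is near that of all genes, as for nuclear respiratory chain genes, with 1 of 74.

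Milk protein genes had the highest median of the 41 lists. Caseins are the main milk proteins of the mouse, and their genes lie side by side on chromosome 5; Lalba encodes alpha-lactalbumin, the regulatory subunit of lactose synthase, and Wap the whey acidic protein. All are induced in alveolar cells by prolactin through STAT5. Of 7 members tested (Csn1s2b was below the filter), 6 had an unadjusted p under 0.05, all higher with glargine, and the median log2 fold change was 2.62. STAT5 binds the letters TTCNNNGAA, which read alike on both strands. Of the 250 bases before the RefSeq start, in GRCm38.p6, this motif was in 3 of 6 milk genes with a window (Csn1s1, Csn2 and Glycam1) and in 7.02% of 32851 promoters. The windows of Csn2 and Csn1s1, the members with the largest log2 fold changes, are shown since both carry the motif, in capitals, 93 bases before the start of Csn2 (chr5:87699426-87699675, minus strand) and 100 bases before that of Csn1s1 (chr5:87665958-87666207, plus strand).
Csn2: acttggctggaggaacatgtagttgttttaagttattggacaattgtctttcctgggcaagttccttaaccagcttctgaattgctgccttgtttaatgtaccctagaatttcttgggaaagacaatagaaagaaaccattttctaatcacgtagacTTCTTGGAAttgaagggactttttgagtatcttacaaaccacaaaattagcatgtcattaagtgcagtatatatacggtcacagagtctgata
Csn1s1: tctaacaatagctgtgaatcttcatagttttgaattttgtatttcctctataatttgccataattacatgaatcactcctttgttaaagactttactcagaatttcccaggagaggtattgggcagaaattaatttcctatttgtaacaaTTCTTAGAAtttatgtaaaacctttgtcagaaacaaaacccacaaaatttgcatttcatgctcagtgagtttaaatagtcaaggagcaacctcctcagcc

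Csn2, beta-casein, was 45.7 RPKM in glargine_47, 54.1 in glargine_53, 3.88 in glargine_62, 36.6 in glargine_63, 72.7 in glargine_64, 4.78 in glargine_67, 10.1 in glargine_69, 5.13 in glargine_70, 0.018 in glargine_73 and 316 in glargine_78. With vehicle it was 24.75 RPKM in Untreated_182, 11.1 in Untreated_194, 4.402 in Untreated_195, 3.52 in Untreated_162 and 2.90 in Untreated_189, and at most 0.196 in the other 5. The groups overlapped, and 5 glargine tumors were above the highest vehicle tumor. The log2 fold change of Csn2 was 3.03 ± 0.95 (p = 0.00243, adjusted p = 0.773).

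Csn1s1, alpha-s1-casein, had 0.113, 37.4 and 206 RPKM in the lowest, median and highest glargine tumor and 0.071, 1.67 and 39.8 RPKM with vehicle (log2 3.13 ± 1.00, p = 0.00305). Csn1s2a, a further alpha-casein, had medians of 3.75 and 0.201 RPKM (log2 2.69, p = 0.00181), and Lalba 3.18 and 0.362 RPKM (log2 1.81, p = 0.00108). The 2 further members under 0.05 were Csn3, kappa-casein, with medians of 48.3 and 3.36 RPKM (log2 2.62, p = 0.00473), and Wap (log2 0.94, p = 0.0193). Glycam1 had a log2 fold change of 1.15 and p = 0.226. Summed over the 7 genes, RPKM was 1.03 to 982 with glargine, with a median of 153, and 1.15 to 322 with vehicle, with a median of 11.1; glargine_73 lay with the lowest vehicle tumors and Untreated_182 with the highest glargine tumors. The mean log2 level of the list was 2.84 with glargine, 0.65 with vehicle, 0.61 with insulin, 1.21 with X10 and 0.84 with IGF1.

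The milk gene values did not rest on 1 library. Without glargine_64 and glargine_78, 5 members were under 0.05 and the median was 1.82. Without the 3 Cdh1-high vehicle tumors there were 6 and 2.94. That set holds Untreated_182, the highest vehicle tumor for milk genes, so this rise is no test of stability. Leaving out any 1 tumor gave 5 or 6 members and medians from 2.17 to 3.07. Markers of other cells moved with some of these tumors. Skeletal muscle markers, 0 of 13 of which were under 0.05, summed to 1196 to 6339 RPKM in glargine_47, glargine_53, glargine_64 and glargine_78, where milk genes were 201.5 to 982 RPKM, but to 10.8 RPKM in glargine_69, with 372.5 RPKM of milk genes, and to 3614 and 2408 RPKM in Untreated_186 and Untreated_197, with 3.01 and 7.91 RPKM of milk genes. With muscle and adipocyte marker levels as covariates, 6 milk genes were under 0.05, with a median of 2.11. These levels were measured in the same libraries, and whether neighbouring tissue carried the milk gene RNA was not tested. In bulk tumors, fewer cells of a type and less RNA per cell cannot be told apart, and this holds for every gene list here.

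**Figure D3:**
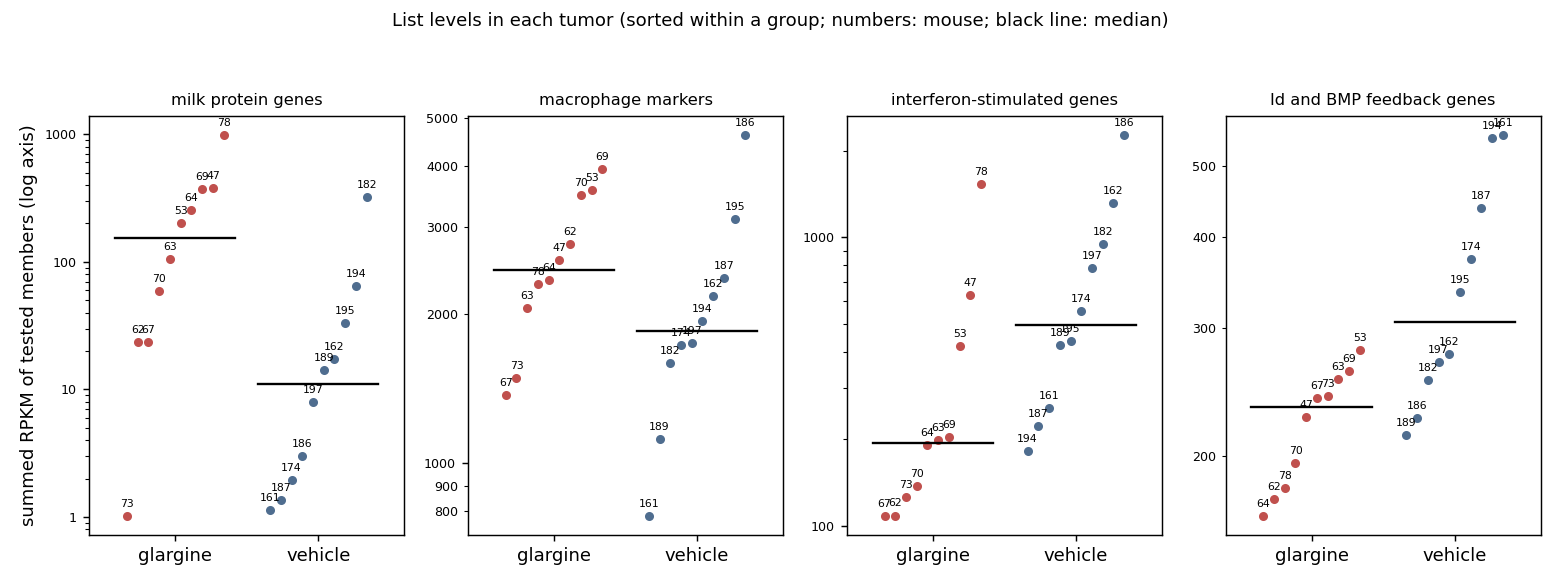
Summed RPKM (log axes) of the tested members of 4 gene lists in each tumor, sorted within a group, with mouse numbers and the group median as a black line. Milk genes run from 1.03 to 982 RPKM with glargine; all 10 glargine tumors are below the vehicle median for Id and BMP feedback genes, and glargine_78 is high for interferon-stimulated genes.

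Epithelial genes other than those of milk had mixed directions. Elf5, the ETS factor of alveolar progenitors that acts upstream of milk genes, had medians of 10.75 and 1.81 RPKM (log2 1.45 ± 0.71, p = 0.0473); 8 of 10 glargine tumors were above the vehicle median, while the highest tumor of all was Untreated_182, with 43.8 RPKM. It was the only 1 of 6 epithelial genes of the study with a positive log2 fold change. In 21 of 36 alternative fits 0 were higher under 0.05, among them the fit without glargine_64 and glargine_78 (median -0.41). Without the 3 Cdh1-high vehicle tumors the list's median turned from -0.42 to 0.79, with 2 of 6 higher under 0.05. The epithelial genes, like the mesenchymal ones, were picked by the study on these tumors and are no independent evidence of a direction. Cdh1 had 1.15, 6.56 and 35.0 RPKM in the lowest, median and highest glargine tumor and 1.33, 5.30 and 106 RPKM with vehicle (log2 -0.39 ± 0.60, p = 0.515). Without Untreated_174 alone it was 7.319e-05. The 3 Cdh1-high vehicle tumors were picked by Cdh1 itself and left out of the vehicle group only, which raises the fold change of Cdh1 by construction (to 0.85) and can do so for other epithelial genes; the values given without them are descriptions and no test of stability.

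Of 11 mesenchymal genes of the study, 10 had a positive log2 fold change (median 0.32), and Vim alone was under 0.05 (log2 0.58 ± 0.21, p = 0.00771). Vim was 2683 to 6102 RPKM with glargine and 1094 to 4769 RPKM with vehicle; 4 glargine tumors were above the highest vehicle tumor, and the lowest vehicle tumors were Untreated_174 (1094 RPKM) and Untreated_182 (1397 RPKM). Without the 3 Cdh1-high vehicle tumors, 0 of 11 were under 0.05 and the median was -0.03. Luminal markers had 0 of 13 under 0.05 (median -0.12), and without the same tumors 2 were higher and the median turned to 0.76. Basal markers had 2 of 11, both lower with glargine, among them Krt14, the basal keratin, with medians of 8.16 and 58.2 RPKM and 2164 RPKM in Untreated_174 (log2 -2.37, p = 0.0251). Without the 3 Cdh1-high vehicle tumors, 0 of 11 were under 0.05 and the median turned to 0.19. Skin keratinocyte markers, of which 4 of 7 were below the filter, had Sbsn lower (log2 -1.13, p = 0.0499), with 242 RPKM in Untreated_174. In 25 of 36 alternative fits there were 0, among them those without glargine_64 and glargine_78 and without the 3 Cdh1-high vehicle tumors.

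Among the other cells of the tumor, macrophage markers had positive log2 fold changes in 12 of 12 genes, with a median of 0.52, and 4 of 12 were under 0.05. Beside F13a1 these were Mrc1, the mannose receptor CD206, with medians of 78.2 and 34.8 RPKM (log2 1.21 ± 0.39, p = 0.00314), the scavenger receptor Msr1, with 52.99 and 33.7 RPKM (log2 0.65, p = 0.0233), and the haemoglobin scavenger receptor Cd163, with 1.85 and 0.809 RPKM (log2 0.76, p = 0.0407). F13a1 is also a leading gene above, and the list was chosen with earlier results of these data known. The count of 4 is thus no independent evidence. Summed over the list, RPKM was 1374 to 3936 with glargine and 782 to 4615 with vehicle. Untreated_161 was lowest and Untreated_186 highest of all 20. The mean log2 level was 6.32 with glargine and 5.65 with vehicle, and it was 6.45 with insulin, 6.14 with X10 and 6.50 with IGF1, so that vehicle was the lowest of the 5 groups. The count of members under 0.05 was 2 without Untreated_161 and without Untreated_182, and 7 without Untreated_186; limma voom could test 7 of the 12, with 1 under 0.05.

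Adipocyte markers had positive log2 fold changes in 10 of 10 genes (median 0.95), with Lep, the hormone leptin (medians 1.35 and 0.196 RPKM, p = 0.0215), and the fatty acid carrier Fabp4 (164 and 46.8 RPKM, p = 0.0382) under 0.05; without glargine_64 and glargine_78 there were 0. Skeletal muscle markers had 12 of 13 positive (median 0.74), and without glargine_64 and glargine_78 the median was -0.50, and without the 3 Cdh1-high vehicle tumors -0.08. Fibroblast markers were positive in 9 of 9 (median 0.37), with the surface protein Thy1 under 0.05 (log2 0.90, p = 0.0242); there were 0 in 4 of 36 alternative fits, those without Untreated_161, without Untreated_197, with only the glargine and vehicle tumors, and with muscle and adipocyte covariates (median 0.08). Neutrophil markers were negative in 8 of 8 (median -0.77), with 0 under 0.05 and 2716 RPKM in Untreated_174; without the 3 Cdh1-high vehicle tumors the median was -0.35, and without Untreated_197 3 of 8 were under 0.05. Counts under 0.05 were 0 of 14 for T and NK cell markers, 0 of 7 for B and plasma cell markers, 0 of 11 for endothelial markers, 0 of 5 for blood and red cell markers and 0 of 7 for MHC class II genes, with medians between -0.12 and 0.05.

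**Figure D4:**
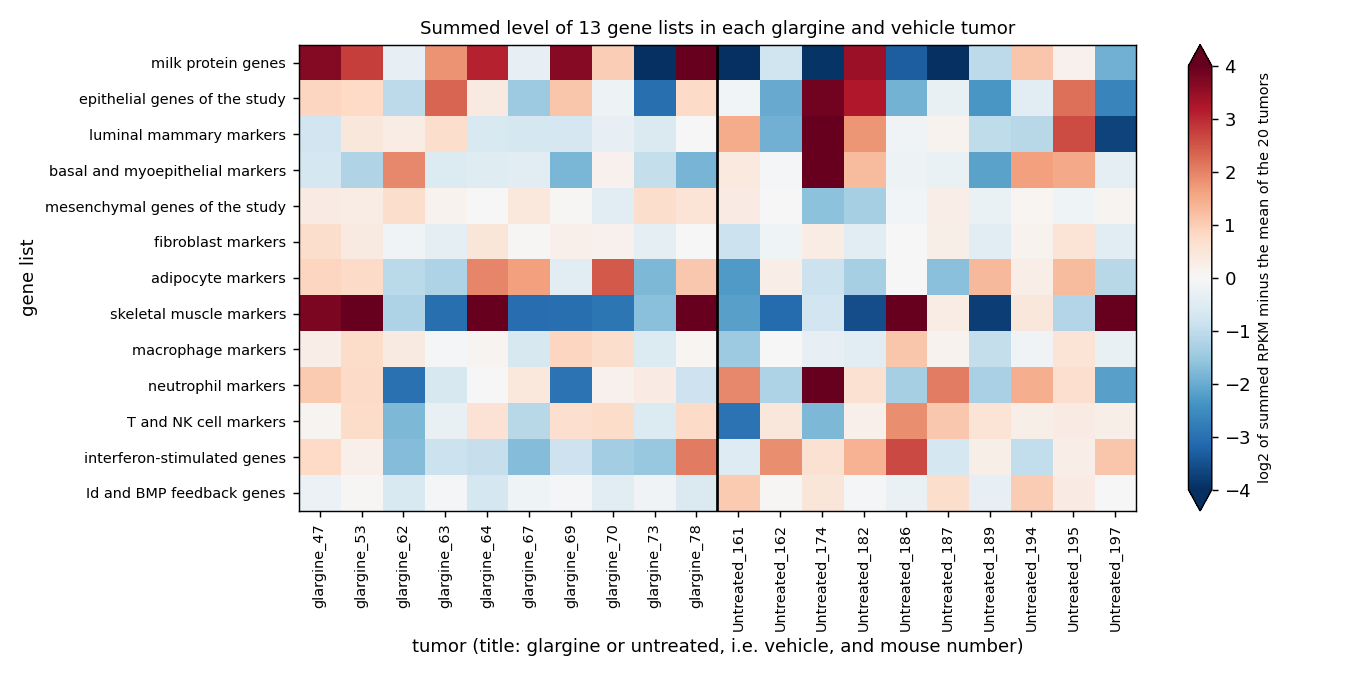
Summed RPKM of 13 gene lists in each of the 20 tumors, as log2 minus the mean of the 20 tumors; the black line divides glargine from vehicle. Milk and muscle genes vary most within groups, and the 3 Cdh1-high vehicle tumors have the highest sums of luminal markers, 1899 to 8903 RPKM.

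Interferon-stimulated genes had negative log2 fold changes in 16 of 16 members, with a median of -0.94, and 6 of 16 had an unadjusted p under 0.05. These genes answer type I interferon through a complex that contains IRF9 and binds the interferon-stimulated response element. Its core, GAAA repeated after any 2 letters, searched on both strands with overlapping matches counted, was within the 250 bases before the start in 7 of 11 members with a RefSeq window and in 2.98% of 32851 promoters. It was in 0 of 6 milk genes, and the STAT5 motif was in 3 of 11 interferon-stimulated genes. The windows of Isg15 (chr4:156200819-156201068, minus strand) and Bst2 (chr8:71537473-71537722, minus strand) are shown, since these members are named below; capitals mark overlapping matches, of which the first begins 78 bases before the start of Isg15 and 130 bases before that of Bst2.
Isg15: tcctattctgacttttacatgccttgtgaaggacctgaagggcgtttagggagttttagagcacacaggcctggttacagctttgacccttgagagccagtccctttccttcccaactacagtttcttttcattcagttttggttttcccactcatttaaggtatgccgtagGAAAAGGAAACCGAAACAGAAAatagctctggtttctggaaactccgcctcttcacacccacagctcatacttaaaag
Bst2: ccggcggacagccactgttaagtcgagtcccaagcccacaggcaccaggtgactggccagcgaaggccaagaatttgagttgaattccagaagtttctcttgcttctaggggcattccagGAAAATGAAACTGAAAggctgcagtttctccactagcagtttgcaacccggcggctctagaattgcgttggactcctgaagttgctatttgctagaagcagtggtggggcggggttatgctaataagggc

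Bst2, tetherin, which holds budding virus at the cell surface, was 26.4, 42.8 and 322 RPKM in the lowest, median and highest glargine tumor, against 37.4, 131 and 514 RPKM with vehicle (log2 -1.28 ± 0.46, p = 0.00783, adjusted p = 0.789). Isg15, a ubiquitin-like modifier, was 9.78, 15.9 and 137 RPKM with glargine and 14.9, 61.9 and 211 RPKM with vehicle (log2 -1.24 ± 0.55, p = 0.0285). For both genes the highest glargine tumors were glargine_78, glargine_47 and glargine_53, in this order, and the highest vehicle tumor was Untreated_186. Usp18, the protease that removes ISG15, had medians of 3.49 and 11.5 RPKM (log2 -1.34, p = 0.018), and Oasl2, of the oligoadenylate synthetase family, 31.8 and 84.75 RPKM (log2 -1.11, p = 0.0164). The 2 further members under 0.05 were Oas1a and Mx2 (log2 -0.88 and -0.90).

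Summed over the list, RPKM was 108 to 1531 with glargine, with a median of 193.9, and 182.2 to 2262 with vehicle, with a median of 497. In 7 glargine tumors the sum was between 108 and 202.5 RPKM, where only 1 vehicle tumor, Untreated_194, was found; glargine_78, glargine_47 and glargine_53 lay within the vehicle range. The mean log2 level was 3.19 with glargine and 4.12 with vehicle, and it was 2.94 with insulin, 3.09 with X10 and 3.43 with IGF1, so that vehicle was the highest group. The count under 0.05 was 12 without glargine_64 and glargine_78 and 2 without the 3 Cdh1-high vehicle tumors. It was 11 without glargine_78, and 3 without glargine_62, glargine_67, Untreated_162 or Untreated_186; all medians stayed between -1.28 and -0.72. Among 22 chemokine ligands, Cxcl1, which attracts neutrophils, was the 1 member under 0.05, with medians of 7.33 and 18.4 RPKM (log2 -1.14, p = 0.0226), and there were 0 lower without glargine_62 or without Untreated_161 and up to 3 in other fits.

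The receptors themselves differed little. Insr was 5.18, 8.58 and 11.6 RPKM in the lowest, median and highest glargine tumor and 4.32, 7.88 and 12.5 RPKM with vehicle (log2 0.12 ± 0.16, p = 0.442). Igf1r was 3.31, 5.40 and 12.1 RPKM with glargine and 3.25, 5.66 and 14.4 RPKM with vehicle (log2 -0.03 ± 0.20, p = 0.9), and its sign turned under several settings. Of the 5 receptor and ligand genes tested, and of 6 IGF binding proteins, 0 were under 0.05; Ins1 and Ins2 were below the filter. The median of the receptor and ligand genes was 0.12, and -0.05 without the 3 Cdh1-high vehicle tumors.

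Of the genes downstream of the receptors, a few single members stood under 0.05. Among 22 adaptor, PI3K and AKT genes this was Grb10, an adaptor that binds and restrains both receptors, with medians of 59.8 and 36.2 RPKM and up to 249 RPKM in glargine_78 (log2 1.04 ± 0.48, p = 0.0353). Among 15 mTOR genes it was Deptor, an inhibitor of mTOR, with 10.2 and 6.69 RPKM (log2 0.60 ± 0.25, p = 0.0222), although glargine_47 had the lowest value of all 20 tumors. Among 15 ERK feedback and ETS genes it was the ETS factor Etv1, with 12.7 and 4.59 RPKM (log2 1.08, p = 0.0443). Without glargine_64 and glargine_78, and likewise without the 3 Cdh1-high vehicle tumors, these 3 lists had 0 higher members under 0.05. With 1 tumor left out the higher count was also 0 for the adaptor list without glargine_67, glargine_69, glargine_78, Untreated_161 or Untreated_174, for the mTOR list without Untreated_162, and for the ERK and ETS list in 13 of 20 fits. Of 11 FOXO factors and targets, 0 were under 0.05. Of 17 immediate early genes, 2 were, both lower: Myc, with 42.1 and 48.7 RPKM (log2 -0.33, p = 0.0252), and the AP-1 subunit Junb, with 81.5 and 112.9 RPKM (log2 -0.42, p = 0.0445); without glargine_64 and glargine_78, or without the 3 Cdh1-high vehicle tumors, there were 0.

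Id and BMP feedback genes had the most members under 0.05 among the signalling lists, 3 of 9, all lower, and a median log2 fold change of -0.40. BMP ligands signal through SMAD1 and SMAD5 to the Id genes, which encode inhibitors of helix-loop-helix factors, and to the inhibitory SMADs. Smad7, an inhibitory SMAD, was 32.3, 43.0 and 58.1 RPKM in the lowest, median and highest glargine tumor and 39.3, 63.2 and 135.9 RPKM with vehicle (log2 -0.53 ± 0.18, p = 0.0045, adjusted p = 0.789). Id3 had 79.3, 103 and 141 RPKM with glargine and 93.0, 157.6 and 351 RPKM with vehicle (log2 -0.71 ± 0.27, p = 0.0122), and Id1 had medians of 18.7 and 26.4 RPKM (log2 -0.64, p = 0.0256). All 10 glargine tumors were below the vehicle median for Smad7 and Id3, and 5 and 6 vehicle tumors were above every glargine tumor. The list's mean log2 level was 3.40 with glargine, 3.72 with vehicle, 3.33 with insulin, 3.20 with X10 and 3.35 with IGF1. The count was 2 without glargine_64 and glargine_78 (median -0.19) and 4 without the 3 Cdh1-high vehicle tumors (median -0.46).

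Metabolic genes differed little as groups. Of 20 glycolysis genes 1 was under 0.05, the aldolase Aldoc, with medians of 24.75 and 18.5 RPKM (log2 0.71, p = 0.0419), and the list's median was -0.05; 0 were higher in 11 of 36 alternative fits, 9 of them with 1 tumor left out. Of 74 nuclear genes of the respiratory chain it was the complex I subunit Ndufb4, with 49.4 and 41.4 RPKM (log2 0.33 ± 0.13, p = 0.0155) and a list median of 0.02. Mitochondrially encoded genes (0 of 13, median 0.12) and hypoxia genes (0 of 13, median 0.16) had none. Fatty acid synthesis genes had positive log2 fold changes in 13 of 13, with a median of 0.25, and Thrsp, a regulator of lipogenesis, was under 0.05 (medians 1.62 and 0.38 RPKM, log2 1.10, p = 0.0471). There were 0 in 22 of 36 alternative fits, among them those without glargine_64 and glargine_78 (median 0.13) and without the 3 Cdh1-high vehicle tumors (median 0.06). Cholesterol genes had 0 of 20 (median 0.08). Of 16 unfolded protein and ATF4 genes 2 were under 0.05, both lower: Ddit3, the stress factor CHOP, with 19.4 and 36.1 RPKM (log2 -0.79, p = 0.0129), and the pseudokinase Trib3, with 10.7 and 25.4 RPKM (log2 -0.76, p = 0.0449).

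Growth genes were alike in that few members stood out. Mitosis genes had 0 of 20 under 0.05 (median 0.10), and DNA replication genes had 1 of 20 (median -0.14), the licensing factor Cdt1 (log2 -0.28, p = 0.0343), and 0 with either set of tumors left out. Of 14 genes of p53 and its targets, Phlda3, an inhibitor of AKT, was under 0.05, with medians of 60.4 and 96.7 RPKM (log2 -0.53 ± 0.20, p = 0.0116), and the summed RPKM of the list was below the vehicle median in all 10 glargine tumors, with a list median of -0.06. Of 77 cytosolic ribosomal protein genes, Rpl38 was under 0.05 (log2 -0.41, p = 0.0244; list median -0.06). This count moved with the processing and the tumors: it was 19, all lower, with the processed pseudogene share as a covariate (median -0.21), 10 without glargine_47 and 0 to 5 without any other single tumor, and 0 without the 3 Cdh1-high vehicle tumors (median 0.05). Of 21 tested members of the histone list, which does not hold Hist1h2ap, Hist1h2ao was under 0.05 (list median -0.16), and 6 were with the pseudogene covariate. Circadian clock genes (0 of 16, median 0.08), collagens and matrix genes (0 of 19, 18 of them positive, median 0.19) and matrix metalloproteinases and TIMPs (0 of 13, median -0.13) had none.

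Tumors of the vehicle group differed more among themselves than those of the glargine group. The distance of a tumor to the mean of the other 9 tumors of its group, as a root mean square of log2 differences over all tested genes, was 0.596 ± 0.065 (SD, n = 10) with glargine and 0.735 ± 0.151 with vehicle, a difference of -0.14 (two-sided permutation test, p = 0.0141, adjusted over 5 values p = 0.0353). Untreated_174 (1.00) and Untreated_161 (0.904) were farthest, the groups overlapped, and the difference was between -0.17 and -0.11 with any 1 tumor left out, with p-values from 0.00156 to 0.036. The test shuffled the distances as they stood, without new group means. Distances within a group share their tumors and are not independent, so the p-values for distance are only approximate. Processed pseudogenes took 5.90 ± 0.60% of summed RPKM with glargine and 5.13 ± 0.63% with vehicle (p = 0.0125, adjusted p = 0.0353). In 4 vehicle tumors this share was under 5%, and in no glargine tumor. The groups did not differ past the threshold in library size (39.7 against 44.6 M reads, p = 0.0647, adjusted p = 0.108), the number of genes with a value above 0 (26786 against 26612, p = 0.536) or the share of mitochondrially encoded genes (3.62 against 3.36%, p = 0.563).

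**Figure D5:**
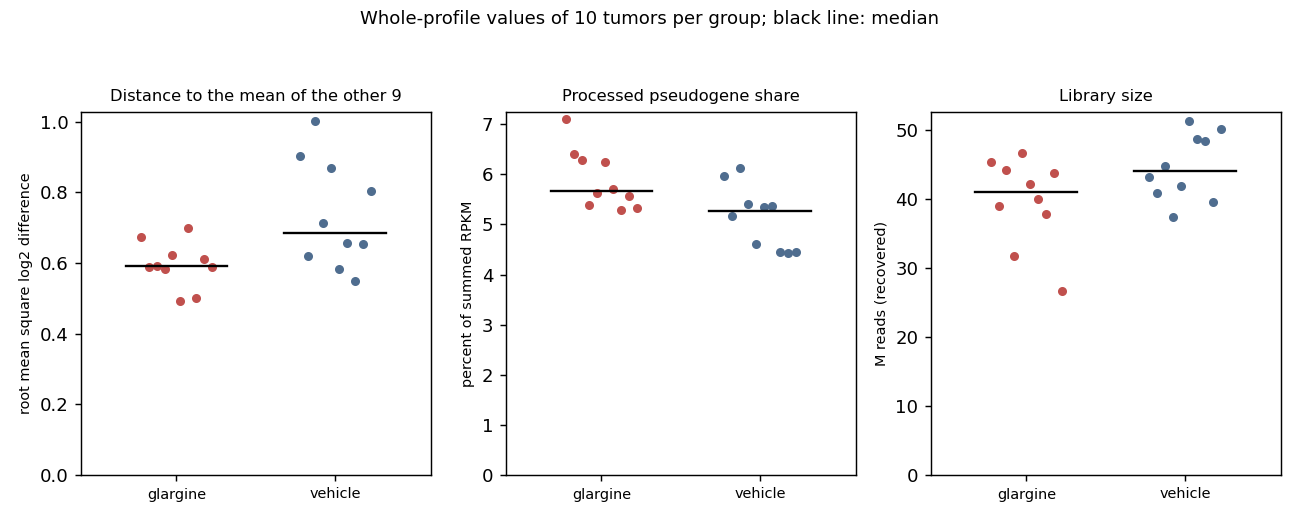
Distance of each tumor to the mean profile of the other 9 tumors of its group, share of summed RPKM from processed pseudogenes, and library size, for 10 tumors per group with the median as a black line. Distances reach 0.699 with glargine and 1.00 with vehicle, and the pseudogene share is higher with glargine (means 5.90 and 5.13%).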

How the data were processed

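Poly-A selected RNA of 50 tumors (5 groups of 10) had been sequenced on the Ion Proton. Per the labels and the study's methods, the authors aligned reads to GRCm38 with TopHat2 2.0.10, then Bowtie2, counted them per gene with HTSeq 0.6.1 in default mode and deposited RPKM values for 37701 genes, already scaled for library size and gene length. For exon expression, the study's methods name DEXSeq for making an RPKM table from read counts. DESeq2 1.2.10 was named for the study's own tests, which need counts and were not repeated. RPKM values lay on steps of a gene, as whole reads scaled to a common library of 100 M reads and rounded would; library sizes, and reads of 15590 of 16733 tested genes (93.2%), were recovered from these steps. Of the low values of these genes, 96.73 to 99.99% per library came out as whole reads, within that rounding.

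log2(RPKM + 0.5) was fitted with limma 3.58.1 (R 4.3.3), 5 groups in the fit, intensity trend, Benjamini-Hochberg adjustment, over genes with a mean of at least 0.5 RPKM in the 50 tumors, and tested on simulated data. Fold changes are differences of means on this scale. Values of 1 per tumor were compared by two-sided permutation tests with 100000 resamples, adjusted over 5 values, with numpy 2.4.6, scipy 1.17.1 and pandas 2.3.3 (Python 3.11.15); figures used matplotlib 3.10.9. p-values measure the spread between tumors, which limma pools over the 5 groups. Each number in a title is taken as 1 mouse. Gene types and coordinates came from GENCODE M21 (GRCm38), in which 16551 tested genes were found, and promoters from RefSeq (GRCm38.p6).

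The rule for named genes takes the receptors and the EMT genes the study names, the 12 protein coding genes with the smallest p in each direction (mean RPKM of at least 1) and up to 4 members per list with an unadjusted p under 0.05; a list without such a member was to be given by its 2 highest genes, but is given by its counts alone, as are epithelial and mesenchymal genes beyond Elf5, Cdh1 and Vim; a few genes that the rule names are not reported here. Marker and pathway lists (41) and the comparison were chosen with earlier results of these data known, and the epithelial and mesenchymal lists are the study's own choice on these tumors, so they are not independent evidence. Alternatives were other pseudocounts, filters, scalings, weights, covariates, voom, fewer tumors or genes, and leaving out each tumor; 2 sets of left-out tumors and the list counts per setting were added after seeing the data.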

Additional observations from a re-analysis of the deposited data

Results flagged for a closer look

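Over the named genes and the values per tumor, 7 groups of 10 tumors (5.30% of those tested) held a tumor whose gap to its nearest neighbour, relative to the group's range, was over Dixon's 95% critical value; chance gives this in about 1 in 20 groups. Elf5 was 43.8 RPKM in Untreated_182, a tumor that was also highest of the vehicle tumors for Csn2. Myh6 was 282 RPKM in glargine_64, the tumor with the highest skeletal muscle markers, and the share of mitochondrially encoded genes was 5.35% in the same tumor. Cd163 was 9.18 RPKM in Untreated_195, Myc was 126 RPKM in Untreated_161, and both lay at the high end. Rnase4 was 70.3 RPKM in glargine_67 and Deptor 2.58 RPKM in glargine_47, both at the low end. The cause of these values was not tested.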

How the results depend on the processing

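The count of genes at an adjusted p under 0.05 was 0 under 13 of 14 alternative settings and 2 with the processed pseudogene share as a covariate (Rpl31-ps4 and Hist1h2ao, log2 -1.08, adjusted p = 0.044, against up to 0.9987 over the other settings); leaving out 1 tumor gave 0 to 1 genes, the 1 being Nacc2 without glargine_73 (log2 0.91, adjusted p = 0.0437, against up to 0.862 over the other settings). The count at an unadjusted p under 0.05 was 2015 over all genes with a nonzero value, 652 with a mean RPKM of at least 5, where other numbers of genes were tested, and 690 without the 3 Cdh1-high vehicle tumors; leaving out 1 tumor gave 781 to 1443. Upper quartile scaling gave 698 higher and 422 lower genes, and quantile normalization 465 and 583, against 554 and 489. Igf1r turned to 0.13 with array weights, 0.081 with muscle and adipocyte covariates and 0.022 without glargine_64 and glargine_78, and leaving out 1 tumor gave -0.13 to 0.11. Cdh1 turned to 0.85 without the 3 Cdh1-high vehicle tumors, which were picked by Cdh1, and leaving out 1 tumor gave -0.65 to 7.319e-05. Under every setting tried, no named gene other than these 2, of 61, changed sign. Library size differed by -5.72 to -3.46 M reads with 1 tumor left out, and its unadjusted p was under 0.05 without glargine_47, glargine_64, Untreated_182 or Untreated_195 (0.0324 to 0.0463). List medians moved by over 1 SD of the within-group level in 2 of 1476 fits, both with a mean RPKM of at least 5: basal markers at -1.43 and skin keratinocyte markers at -1.13. No paired analysis was possible because the mouse numbers of the groups differ. In variable genes, large differences also missed the adjusted threshold at this number of tumors, such as Csn2 (log2 3.03, adjusted p = 0.773).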
